A study of Galdieria sulphuraria with 9 samples.

Results

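The transcriptome of *Galdieria sulphuraria* after 48 h at 46 °C (sampling H-46) was compared with that after 2 weeks at 42 °C (sampling H-42), the 2 heat samplings of one temperature timeline. The comparison rests on 4 of the 9 sequenced libraries, chosen by their sampling label alone: cultures A and C for H-46, and cultures B and C for H-42. All cultures were wild type, strain 074W, grown photoautotrophically in batch under constant light and shaking. The H-42 cultures had seen only 42 °C, whereas the H-46 cultures had been grown at 42 °C, held for 48 h at 28 °C (sampling C-28.1, 3 libraries) and then moved to 46 °C. A second 28 °C step of 48 h followed (sampling C-28.2, 2 libraries). H-46 and H-42 thus differ in temperature, in time at that temperature, in culture age and in an earlier cold step, and these cannot be told apart. Only culture C is present in both heat samplings, since culture A was sequenced for H-46 alone and culture B for H-42 alone.

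*G. sulphuraria* is a single-celled red alga that lives in hot, acidic springs. In most organisms a move to higher temperature calls on chaperones, which hold or refold damaged proteins, while ribosomal protein genes and membrane lipid enzymes are commonly adjusted with growth temperature. Glycine-rich RNA binding proteins are best known from land plants and cyanobacteria, where their transcripts rise in the cold.

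Culture A of H-46 gave 4389066 counts and culture C 4709730, against 8989387 and 8309544 for cultures B and C of H-42, so the H-46 libraries were the shallower ones, and between 6375 and 6410 genes had at least 1 count in these 4 libraries. Values below are counts scaled to library size (CPM), with library sizes adjusted by the trimmed mean of M-values (TMM). Product names come from the supplementary tables of the study and exist for 1157 of the 6264 tested genes, picked there for alternative splicing or differential expression between heat and cold. They therefore are not a random sample of the genome.

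Few genes separated the heat samplings. With edgeR's quasi-likelihood test and the thresholds of 0.01 for the p adjusted by Benjamini-Hochberg and 2.5 for the fold change, 3 of the 6264 genes passed (0.0479% of the genes tested), 2 higher in H-46 (0.0319%) and 1 lower (0.0160%). At an adjusted p below 0.05 without a fold minimum, 16 genes passed (0.255%), 11 higher (0.176%) and 5 lower (0.0798%), and 13 of these exceeded 2.5-fold (0.208%), 9 higher (0.144%) and 4 lower (0.0639%). At an unadjusted p below 0.05 there were 534 genes (8.52%), 289 higher (4.61%) and 245 lower (3.91%). The H-46 and H-42 libraries did not overlap in 2399 genes (38.3%), 1305 with both H-46 libraries above (20.8%) and 1094 with both below (17.5%). Without any model, 11 of the 5952 genes with a mean of at least 5 CPM were more than 2.5-fold apart in each of the 4 pairs of 1 H-46 and 1 H-42 library (0.185%), 7 higher (0.118%) and 4 lower (0.0672%), and 10 of them were among the 16, which makes 17 genes under either criterion. The median log2 fold change over all tested genes was 0.046. The count of 3 depended on single libraries. It was 0 without H-46 A, without either H-42 library or without any one library of C-28.1, and 8 without H-46 C. The count of 16 became 4 without H-46 A (the 3 genes past the threshold and 1 other), 0 without H-42 B or H-42 C, 5 without C-28.1 A, 4 without C-28.1 B, 3 without C-28.1 C, and 501 without H-46 C. DESeq2 called 23 and 72 genes at these thresholds, among them all 3 and all 16.

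The change with the smallest p lay in a run of 3 neighbouring genes, Gs49900, Gs49910 and Gs49920, which follow each other in the annotation of assembly ASM34128v1. Gs49920 encodes an amino acid/auxin permease of the AAP family, a class of carriers that bring amino acids into the cell. Its level was 198 and 174 CPM in H-46 (A and C) against 29.8 and 30.5 CPM in H-42 (B and C). Both H-46 libraries lay far above both H-42 libraries, and above all 5 libraries at 28 °C, which held between 11.5 and 21.6 CPM. The mean was 186 ± 16.8 CPM in H-46 against 30.1 ± 0.493 CPM in H-42 (SD, n = 2 each). Gs49920 rose by 2.62 on the log2 scale (standard error 0.27, edgeR adjusted p = 0.00435), a 6.17-fold change, and within culture C the ratio of H-46 to H-42 was 5.71. Gs49900 encodes a primary-amine oxidase, an enzyme that turns amines into aldehydes with release of ammonia and hydrogen peroxide. Its level was 358 and 190 CPM in H-46 (A and C) against 50.5 and 53.5 CPM in H-42 (B and C). Again the groups did not overlap, although culture A was well above culture C. The log2 fold change was 2.40 (standard error 0.35, edgeR adjusted p = 0.0248), and the 28 °C libraries lay between 16.3 and 51.6 CPM. Gs49910, the gene between them, has no product name in the tables used. It was at 242 and 185 CPM in H-46 (A and C) against 81.9 and 86.7 CPM in H-42 (B and C), a log2 fold change of 1.34 (standard error 0.20, edgeR adjusted p = 0.0274). The next gene on one side, Gs49930, a hypothetical protein, was higher as well without passing the test. It was at 144 and 169 CPM against 97.5 and 107 CPM, a log2 fold change of 0.61 (edgeR unadjusted p = 0.00775, adjusted p = 0.386). On the other side, Gs49890 had one of 0.48 (adjusted p = 0.818) but held at most 6.57 CPM in these libraries. The genes of the run called at an adjusted p below 0.05 were thus Gs49900, Gs49910 and Gs49920. All 3 were back below their H-42 level in C-28.2, between 11.5 and 27.0 CPM. The run was noticed after the values were seen, and overlapping or antisense transcripts cannot be separated in these counts.

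Other genes were higher in H-46 than in any other sampling. Gs06400 encodes a glycogenin glucosyltransferase-like protein; glycogenin of animals and fungi primes the synthesis of glycogen, the storage glucan. Its level was 367 and 152 CPM in H-46 (A and C), 47.9 and 68.5 CPM in H-42 (B and C) and between 6.22 and 12.0 CPM at 28 °C. The 3 temperatures were thus in order without overlap, but culture A exceeded culture C by 1.27 on the log2 scale. The log2 fold change of H-46 over H-42 was 2.16 (standard error 0.35, edgeR adjusted p = 0.0391). It was 1.74 with the culture letter as a block (adjusted p = 0.103) and 1.37 without H-46 A (adjusted p = 0.0851). Gs31400, with no product name, had the same order, with 267 and 147 CPM in H-46 (A and C), 31.9 and 67.7 CPM in H-42 (B and C) and between 5.59 and 7.99 CPM at 28 °C (log2 fold change 2.05, standard error 0.36, edgeR adjusted p = 0.0471). With the culture block its log2 fold change was 1.66 (adjusted p = 0.12), and without H-42 C it was 2.69 (adjusted p = 0.131). Gs62730, also unnamed, was at 305 and 316 CPM against 108 and 122 CPM and between 10.7 and 21.0 CPM at 28 °C. It was 2.5-fold apart in each pair, with a log2 fold change of 1.43 and an adjusted p of 0.067 in edgeR. In all, 5 of these 17 genes were ordered upward over 28, 42 and 46 °C with no overlap between temperatures (Gs06400, Gs31400, Gs62730, Gs49910 and Gs49920), and 3 were ordered downward (Gs13830, Gs54190 and Gs55380). The step from 42 to 46 °C follows largely from how the 17 were chosen, and such orders were not counted over all genes. A looser pattern, H-46 above all other libraries whatever the order of 28 and 42 °C, was found in 8.92% of all tested genes. H-46 lay below all other libraries in 7.49%. These shares are no background for the ordered genes. Gs37510 was elevated at 46 °C only: 337 and 264 CPM in H-46 against 79.2 and 103 CPM in H-42 and between 84.0 and 157 CPM at 28 °C (log2 fold change 1.72, standard error 0.29, edgeR adjusted p = 0.0426, or 0.0522 with the culture block).

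A further set was higher in H-46 than in H-42 and did not return when the cultures went back to 28 °C. Gs06850, unnamed and one of the 3 genes past the threshold, was at 53.4 and 43.1 CPM in H-46 (A and C) against 6.56 and 3.73 CPM in H-42 (B and C). The log2 fold change was 3.22 (standard error 0.39, edgeR adjusted p = 0.00867), the largest rise among the genes 2.5-fold apart in each pair. In C-28.1, before the move to 46 °C, it was between 10.5 and 17.5 CPM, and in C-28.2, after it, at 80.9 and 44.8 CPM (A and C). Gs44470, a hypothetical protein, was at 61.8 and 48.4 CPM in H-46 against 16.2 and 12.8 CPM in H-42 (log2 fold change 1.93, standard error 0.28, edgeR adjusted p = 0.0248), and at 62.4 and 51.5 CPM in C-28.2 against between 11.2 and 19.0 CPM in C-28.1. Gs24540, unnamed, was at 56.6 and 59.5 CPM against 21.2 and 17.3 CPM (log2 fold change 1.59, edgeR adjusted p = 0.0248), and stood at 72.8 and 61.3 CPM in C-28.2 but between 21.0 and 30.0 CPM in C-28.1. In these 3 genes the later 2 samplings lay above the earlier 2 without overlap. Within the earlier 2, Gs06850 was higher in C-28.1 than in H-42, also without overlap. The contrast between the 28 °C samplings, the second minus the first, shares no library with that of H-46 and H-42, though it shares cultures. In it the 3 genes differed by 2.06, 1.86 and 1.34 on the log2 scale (edgeR adjusted p = 0.0104 for each). The 3 genes were grouped by their C-28.2 values, so these p-values are no separate support for the group. The share of all genes that passed in this contrast was not counted. Gs07500, a hypothetical protein, was higher in both contrasts too, at 182 and 162 CPM in H-46, 74.3 and 75 CPM in H-42, 93.4 and 119 CPM in C-28.2 and between 29.5 and 29.7 CPM in C-28.1. Its edgeR adjusted p for H-46 against H-42 was 0.0372, or 0.0639 with the culture block. Of the 16 genes, 12 had the same direction in both contrasts and 5 of those exceeded 2.5-fold there by fitted value. The shares of all genes that did so were not counted. Some of the 12 were near 0 in the contrast of the 28 °C samplings, such as Gs37510 at 0.02 (edgeR adjusted p = 0.972). Gs31500, among the 5, held at most 3.19 CPM in the 28 °C libraries. Over the 5952 genes with a mean of at least 5 CPM, Pearson's r between the 2 contrasts was -0.07, a description across genes whose points share cultures and the fitted model. Gs33500, unnamed, showed another form. It was at 80.5 and 77.6 CPM in H-46, 33.7 and 36.7 CPM in H-42 and between 86.7 and 121 CPM in the 28 °C libraries, so that H-42 stood apart from the other 3 samplings (log2 fold change 1.17, edgeR adjusted p = 0.0471, or 0.0639 with the culture block).

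**Figure D1:**
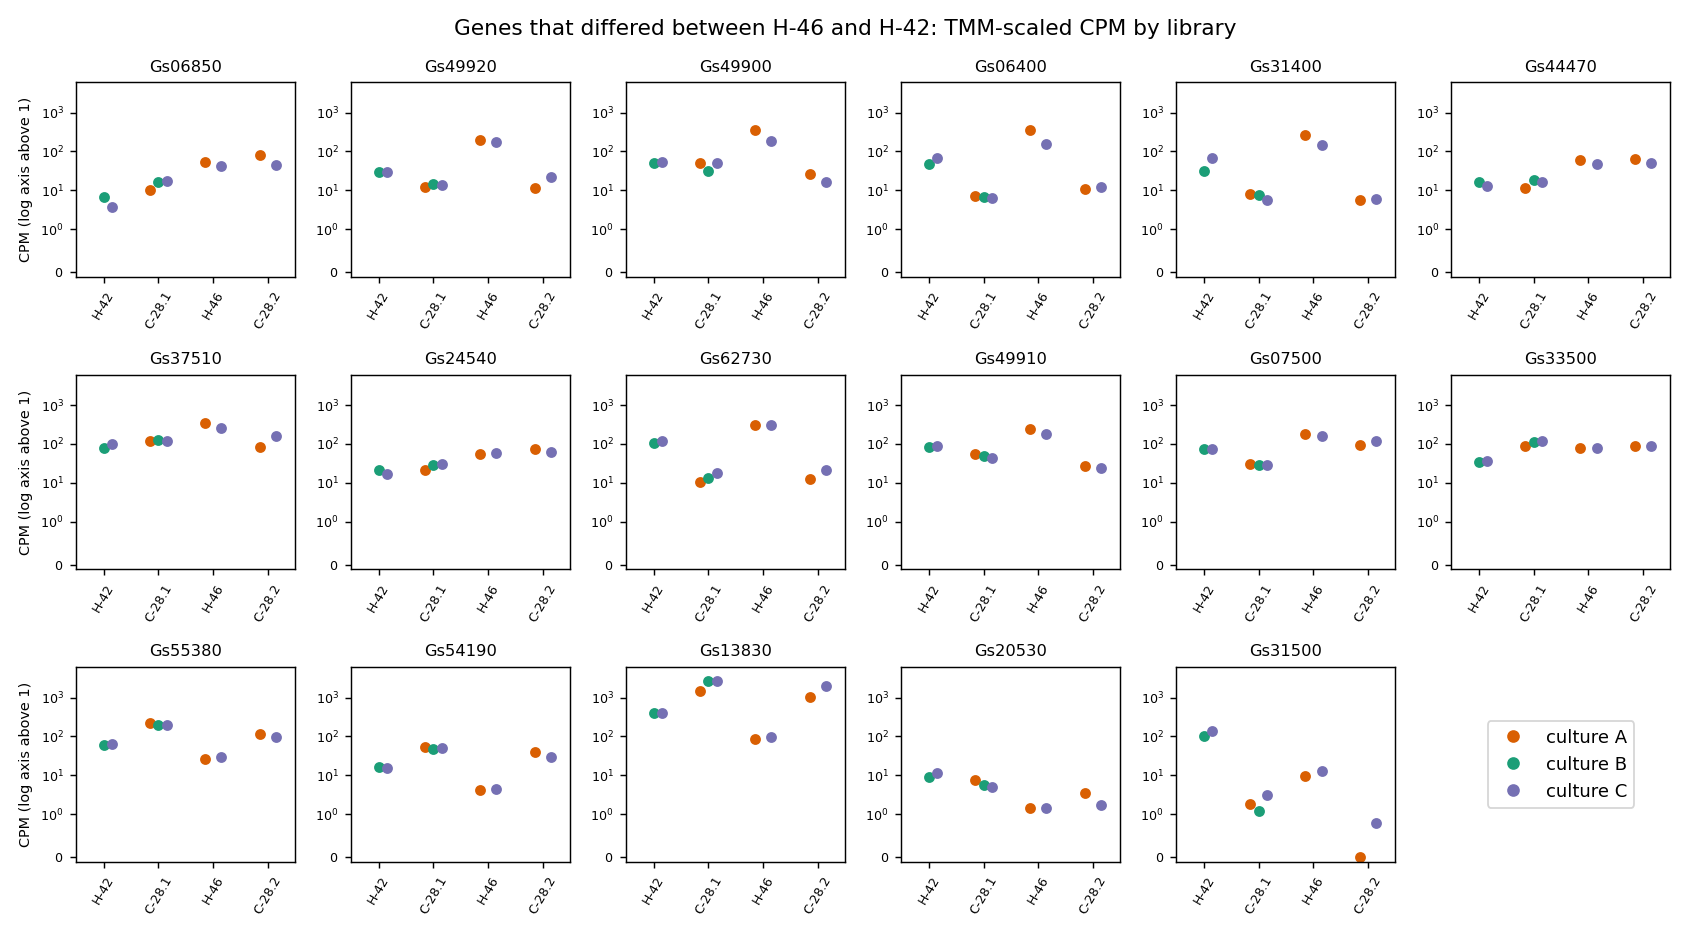
CPM (vertical axis, logarithmic above 1) of the 17 genes that had an adjusted p below 0.05 or were 2.5-fold apart in each library pair, ordered by log2 fold change of H-46 over H-42; each point is 1 library, placed by sampling in the order of the timeline and coloured by culture. Gs06850, Gs44470 and Gs24540 remained high in C-28.2, whereas Gs49900, Gs49910 and Gs49920 were higher in both H-46 libraries than in any other library.

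Among the genes apart in each pair, the largest fall was that of Gs31500, which has no product name. It was at 9.43 and 12.7 CPM in H-46 (A and C) against 103 and 137 CPM in H-42 (B and C), resting on 47, 62, 910 and 1136 counts. The libraries at 28 °C held at most 3.19 CPM. Gs31500 was thus abundant in H-42 alone, and fell by 3.43 on the log2 scale (standard error 0.41, edgeR adjusted p = 0.00867). Gs13830 encodes a glycine-rich RNA binding protein (isoform 2). It was at 85.7 and 97.9 CPM in H-46 (A and C), 404 and 408 CPM in H-42 (B and C), and between 1030 and 2720 CPM at 28 °C. Its level was therefore lowest at the highest temperature, with no overlap between the 3 temperatures, and the log2 fold change of H-46 over H-42 was -2.15 (standard error 0.37, edgeR adjusted p = 0.0471). A second gene of this product, Gs37390 (isoform 1), named because it shares that annotation, was at 302 and 416 CPM in H-46 against 963 and 1015 CPM in H-42. Its log2 fold change of -1.46 had an unadjusted p of 0.00084 and an adjusted p of 0.14 in edgeR, so it did not pass. Gs54190 and Gs55380, both unnamed, had the same order over temperatures as Gs13830. Gs54190 was at 4.22 and 4.51 CPM in H-46, 16.6 and 15.2 CPM in H-42 and between 30.5 and 52.8 CPM at 28 °C (log2 fold change -1.86, edgeR adjusted p = 0.0248). Gs55380 was at 25.7 and 29.3 CPM, 61.8 and 63.6 CPM, and between 96.5 and 219 CPM (log2 fold change -1.19, edgeR adjusted p = 0.0414, or 0.0579 with the culture block).

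Gs20530, unnamed, was at 1.41 and 1.44 CPM in H-46 against 9.28 and 11.6 CPM in H-42, which is 7 counts in each H-46 library, so its log2 fold change of -2.86 (standard error 0.47, edgeR adjusted p = 0.0414) carries a large counting error. The genes on its sides were lower as well without passing the test: Gs20520, unnamed, by -0.83 on the log2 scale (unadjusted p = 0.00155, adjusted p = 0.213), and Gs20540, a mitochondrial carrier, by -0.70 (unadjusted p = 0.0095, adjusted p = 0.397). Of the 17 genes that were called at an adjusted p below 0.05 or were apart in each pair, 4 have a product other than hypothetical, against 766 of the 6264 tested genes.

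Each change was examined in both H-46 cultures. Relative to the mean of H-42, the 12 genes that were higher differed by 2.28-fold to 10.4-fold in culture A and by 2.17-fold to 8.37-fold in culture C; that both cultures lay on the same side in all 17 genes follows largely from how these were chosen. Over all 6264 tested genes, the root mean square log2 difference was 0.687 between H-46 A and H-46 C, against 0.275 between H-42 B and H-42 C, and it was 0.632 and 0.686 from H-46 A to H-42 B and C but 0.464 and 0.409 from H-46 C to the same libraries. H-46 A thus lay about as far from H-46 C as from the H-42 libraries, whereas H-46 C lay nearer to both H-42 libraries than to H-46 A. More than 2.5-fold differences between H-46 A and H-46 C were found in 260 genes of at least 5 CPM, 50 higher in A and 210 higher in C, against 5 genes between the H-42 libraries. Without TMM scaling, on library totals, the split was 103 against 131. Among the named genes, those most above culture C in culture A were Gs25760, an omega-6 fatty acid desaturase (42.6 against 16.8 CPM), Gs06400 (above) and Gs07980, a phosphatidyltransferase of phospholipid synthesis (60.8 against 25.9 CPM). Those most below were Gs37250, the 60S ribosomal protein L38e (49.8 against 165 CPM), Gs37440, annotated as a SNAP receptor and protein transporter (30.5 against 97.3 CPM), and Gs26400, a coiled-coil-helix domain protein (39.7 against 118 CPM). For the last of these the H-42 libraries (68.6 and 80.1 CPM) lay between the H-46 cultures, so the fitted fold change was near 0.

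**Figure D2:**
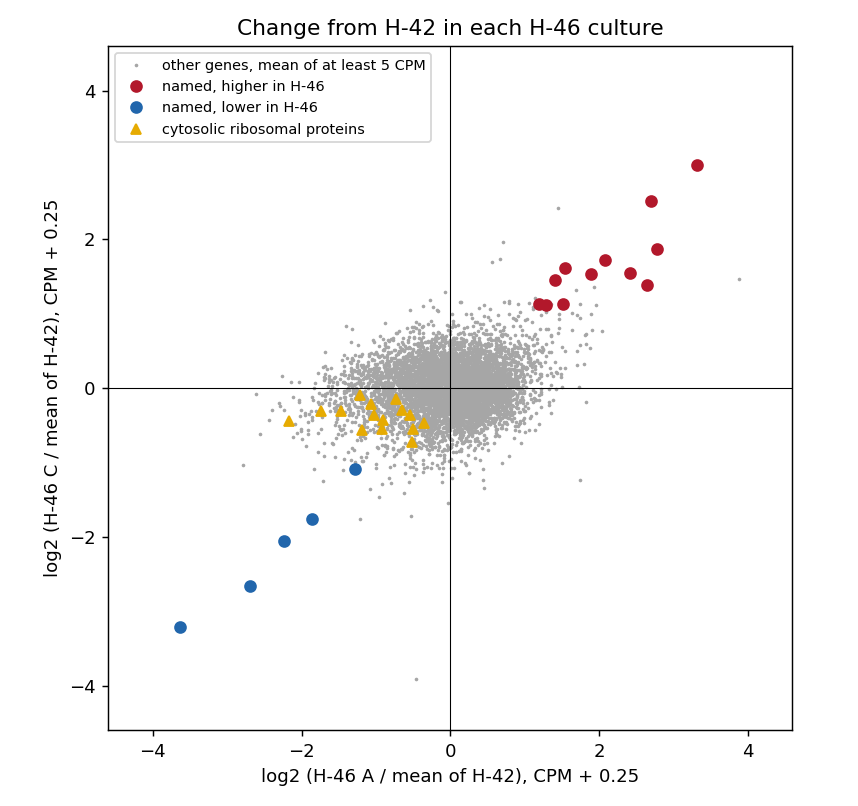
Log2 ratio to the mean of H-42 in H-46 A (horizontal axis) and H-46 C (vertical axis), computed on CPM + 0.25, for the 5952 genes with a mean of at least 5 CPM; each point is 1 gene. The 12 genes that were higher and the 5 that were lower lie at the upper right and the lower left, so on the same side in both cultures, and the cloud of other genes is wider along the axis of culture A.

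The difference between the cultures followed gene length. Across the 5944 genes with an annotated length and at least 5 CPM, Spearman's rho between length and the log2 difference of H-46 A and C was 0.53, against 0.15 for H-42 B and C, 0.45 for C-28.2 A and C and 0.08 for C-28.1 A and C (descriptions across genes, all points of a value coming from the same 2 libraries). The genes were split by length into 4 bins of like size. In the shortest bin, 262 to 992 bases, the median was -0.46 in H-46 A and 0.08 in H-46 C relative to H-42, and in the longest bin 0.34 and -0.04. Of the 210 genes that were lower in culture A, 168 lay in the shortest bin. The A against C differences of H-46 and of C-28.2 had a Pearson's r of 0.58 over 5952 genes, while the same measure for H-46 and C-28.1 was 0.14. Of the 260 genes, 244 differed in the same direction in C-28.2 (71.8% of all 5952 genes did so) and 45 by more than 2.5-fold. Of all 5952 genes, 169 were more than 2.5-fold apart between C-28.2 A and C in either direction. In C-28.1, 197 of the 260 differed in the same direction (53% of all genes) and 8 by more than 2.5-fold. There, 49 of all 5952 genes were more than 2.5-fold apart between A and C in either direction. Culture A and the libraries made from it cannot be told apart here.

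**Figure D3:**
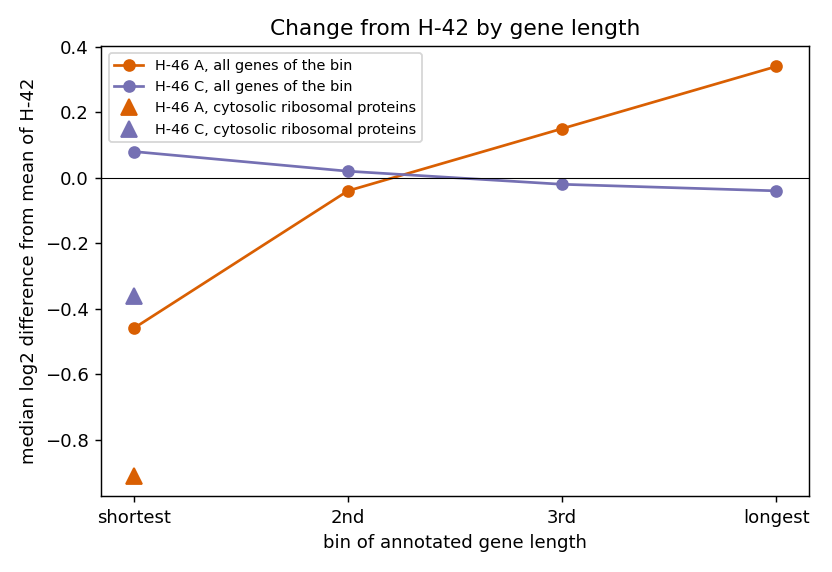
Median log2 difference from the mean of H-42 (vertical axis) in 4 bins of annotated gene length (horizontal axis) for H-46 A and H-46 C, with triangles for the median of the 15 cytosolic ribosomal protein genes, drawn at the shortest bin, which holds 14 of them. The line of culture A runs from -0.46 to 0.34, that of culture C from 0.08 to -0.04, and both triangles (-0.91 and -0.36) lie below the point of their own culture.

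The cytosolic ribosomal protein genes, structural parts of the ribosome that translates nuclear mRNAs, were the gene list that stood lowest. All 15 members with a product name had a negative log2 fold change, from -0.40 to -1.07 with a median of -0.62 beside 0.046 for all genes. Ribosomal protein genes without a product name in the sources used here were not covered. None passed the threshold or reached an adjusted p of 0.05; at an unadjusted p below 0.05, 7 were lower and 0 higher, where 3.91% of all genes were lower. With the culture letter as a block, 4 were lower at that level (4.13% of all genes) and the median was -0.44. In 14 of the 15 both H-46 libraries lay below both H-42 libraries, against 17.5% of all tested genes. Gs26210, the 60S protein L23e, was at 219 and 338 CPM in H-46 (A and C) against 531 and 468 CPM in H-42 (B and C), a log2 fold change of -0.84 (standard error 0.27, edgeR adjusted p = 0.405). Gs49340, the 40S protein S15e, was at 189 and 244 CPM against 386 and 327 CPM (log2 fold change -0.72, adjusted p = 0.411). Gs06940, the 60S protein L23Ae and the most abundant member by CPM, was at 237 and 535 CPM against 687 and 632 CPM (log2 fold change -0.77, adjusted p = 0.583), and Gs53580, the 40S protein S24e, at 165 and 444 CPM against 527 and 572 CPM. In each of these, culture A was the lower H-46 library. Culture A was the higher one in Gs52020 (260 and 226 CPM in A and C), Gs57270 (219 and 203 CPM) and Gs61400 (215 and 208 CPM), and the lower one in all other members. The ribosomal protein genes are short, with a median length of 651 bases against 1411 bases for all genes of at least 5 CPM. They thus share the property along which culture A departed. How far gene length or culture A accounts for their lower level was not tested, and the values that follow are descriptions. In culture C, where short genes were slightly higher (median 0.08), the median of the ribosomal protein genes was -0.36, with all 15 below the mean of H-42, as were 42.3% of the genes in the shortest bin, and 14 below H-42 C. Without H-46 A the median was -0.38 with 2 members lower at an unadjusted p below 0.05 (4.44% of all genes in that fit), and after removal of the length trend from each library it was -0.43 with 5 (5.86%).

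The rest of the translation machinery had no common direction. In the counts that follow, an unadjusted p below 0.05 was reached by 4.61% of all genes upward and 3.91% downward. Of 8 organellar ribosomal protein genes, 1 was lower at that level and the median was -0.04. That one, Gs56500, the 30S protein S1, was at 336 and 583 CPM in H-46 (A and C) against 1170 and 1020 CPM in H-42 (B and C), and at 2870 CPM or above in the 28 °C libraries (log2 fold change -1.25, standard error 0.31, edgeR adjusted p = 0.225). Gs27370, the mitochondrial protein L33, was at 42.8 and 111 CPM against 132 and 122 CPM. Among 12 translation factors 1 was higher and 2 were lower at that level, with a median of -0.10. Gs44210, a peptide chain release factor RF-2, which ends translation at stop codons in bacteria, was at 79.7 and 56.8 CPM against 32.7 and 32.4 CPM (log2 fold change 1.07, edgeR adjusted p = 0.1). Gs17370, the initiation factor eIF-5A, was at 349 and 453 CPM against 668 and 636 CPM (log2 fold change -0.70, adjusted p = 0.437), and Gs19840, the elongation factor EF-1 alpha, which delivers aminoacyl-tRNAs to the ribosome, at 1040 and 507 CPM against 1260 and 988 CPM (log2 fold change -0.54, adjusted p = 0.659). Of 9 aminoacyl-tRNA synthetases 1 was lower, Gs19350 for methionine (112 and 185 CPM against 236 and 243 CPM), and the median was 0.08.

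Among heat shock proteins and chaperones no member reached an adjusted p of 0.05. Of 18 measured members with a product name, 1 was higher and 0 were lower at an unadjusted p below 0.05 (4.61% and 3.91% of all genes), the log2 fold changes ran from -0.47 to 0.54 and the median was -0.01, or 0.12 on library totals, where the median of all genes was 0.18. Gs07100, the chaperonin GroES, which closes the folding chamber of GroEL and was the most abundant member by CPM, was at 2240 and 2570 CPM in H-46 (A and C) against 2050 and 1920 CPM in H-42 (B and C), a log2 fold change of 0.28 with a standard error of 0.24. Gs50780, a cyclophilin B that speeds the folding of proteins at proline bonds, was at 79.5 and 55.0 CPM against 48.2 and 44.1 CPM (log2 fold change 0.54, unadjusted p = 0.0466, adjusted p = 0.566 in edgeR). Gs30690, another peptidylprolyl isomerase, was at 260 and 349 CPM against 418 and 426 CPM (log2 fold change -0.47, adjusted p = 0.583). The list holds only genes named in the tables of the study, so other chaperone genes were not covered. Its members are mostly peptidylprolyl isomerases, beside DnaJ-type proteins, prefoldins, GroES and a gene annotated as heat shock transcription. None is named Hsp70, Hsp90, GroEL or small heat shock protein, so the list says nothing about those families.

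Splicing genes, the subject of the study, gave 2 of 11 members lower and 0 higher at an unadjusted p below 0.05, against 3.91% of all genes lower and 4.61% higher, with a median of -0.16. Both are SR proteins, which guide the spliceosome to exons. Gs33180 (arginine/serine-rich 7) was at 160 and 143 CPM in H-46 (A and C) against 265 and 248 CPM in H-42 (B and C), without overlap (log2 fold change -0.76, standard error 0.22, edgeR adjusted p = 0.36). Gs28130 (arginine/serine-rich 2) was at 113 and 181 CPM against 231 and 235 CPM (log2 fold change -0.66, adjusted p = 0.569), and Gs52230, a putative splice factor, at 295 and 219 CPM against 206 and 198 CPM (log2 fold change 0.35). The 28 °C libraries were higher for both SR genes, at 528 CPM or above for Gs33180 and 335 CPM or above for Gs28130. Whether single introns were spliced differently cannot be read from counts over whole genes.

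In the list of nitrogen assimilation and amino acid uptake, 2 of 4 members were higher and 1 was lower at an unadjusted p below 0.05. Of all genes, 4.61% were higher and 3.91% lower at that level. The 2 higher members are the permease and the amine oxidase of the run described above, so they are no separate result. The lower one, Gs36460, a glutamate dehydrogenase that links glutamate to the citric acid cycle, was at 71.3 and 58.5 CPM in H-46 against 103 and 103 CPM in H-42 (log2 fold change -0.67, edgeR adjusted p = 0.534). Gs37790, glutamine synthetase, the enzyme that fixes ammonium into glutamine, was at 1970 and 1240 CPM against 1870 and 1750 CPM, so the groups overlapped (log2 fold change -0.17, standard error 0.28). The list's median of 1.11 rests on those 2 genes of the run.

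Other lists gave few called members. The counts that follow are at an unadjusted p below 0.05, which 4.61% of all genes reached upward and 3.91% downward. Of 10 redox defence genes 1 was higher and 1 lower. Gs44280, thioredoxin f, which switches enzymes of carbon fixation by light in plant chloroplasts, was at 277 and 404 CPM in H-46 against 640 and 608 CPM in H-42 (log2 fold change -0.87, edgeR adjusted p = 0.345), and Gs57760, S-formylglutathione hydrolase, a formaldehyde-detoxifying enzyme, at 72.9 and 76.7 CPM against 42.8 and 46.0 CPM (log2 fold change 0.75, adjusted p = 0.353). Of 18 genes of DNA replication and cell cycle 1 was higher, Gs54700, a mitotic-specific cyclin, at 81.9 and 61.4 CPM against 39.4 and 34.8 CPM (log2 fold change 0.95, adjusted p = 0.126). Of 18 fatty acid and lipid genes 3 were higher, led by Gs08390, a diacylglycerol O-acyltransferase, the last step of triacylglycerol synthesis, at 67.8 and 42.3 CPM against 28.3 and 29.4 CPM (log2 fold change 0.93, adjusted p = 0.397), and Gs58580, a diacylglycerol kinase, at 66.2 and 67.1 CPM against 47.4 and 47.3 CPM. Of 10 sterol and isoprenoid genes 1 was higher, Gs22080, a sterol decarboxylase, at 1160 and 764 CPM against 679 and 599 CPM. Of 22 proteasome and ubiquitin genes 1 was higher, Gs54980, a ubiquitin-conjugating enzyme E2, at 113 and 84.5 CPM against 72.6 and 64.9 CPM. Of 5 proton pump genes, which move protons across membranes, 1 was higher, Gs15900, a vacuolar proton pyrophosphatase, at 77.3 and 56.4 CPM against 49.6 and 42.6 CPM. None of the 6 genes of chlorophyll, haem and bilin synthesis was past an unadjusted p of 0.05, and their median was -0.25. The lists of carbon fixation, sugar transporters, sigma factors, methionine cycle and photosynthesis held 2 or fewer tested members, none of them past that level. Over all 19 lists, the member with the highest mean CPM had a log2 fold change between -1.25 and 0.59.

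**Figure D4:**
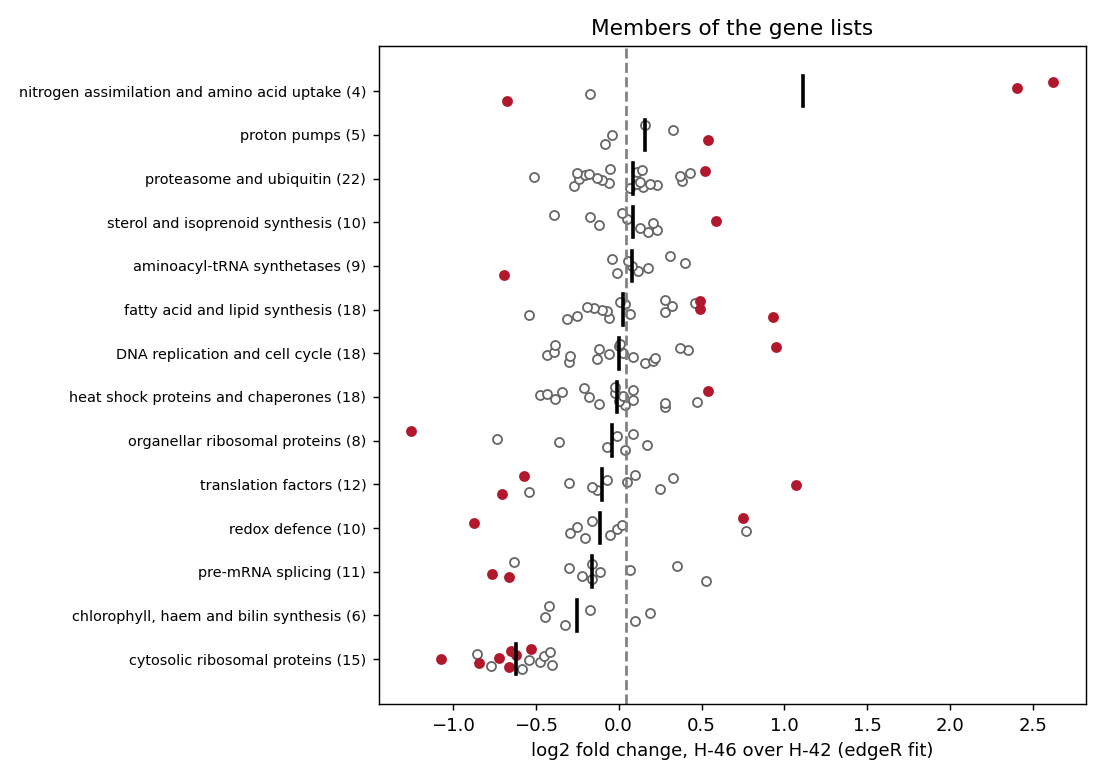
Log2 fold change of H-46 over H-42 from the edgeR fit (horizontal axis) for each tested member of the 14 lists with at least 4 members (number tested in brackets); filled points had an unadjusted p below 0.05, bars are list medians and the dashed line is the median of all genes, 0.046. The 15 cytosolic ribosomal protein genes all lie left of the line, and the 2 points beyond 2 are Gs49900 and Gs49920.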

How the data were processed

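The values the authors deposited are counts, whole numbers of reads for each of 6538 genes with no scaling (79 at 0 in all libraries). Their Methods describe trimming and STAR mapping with unique reads kept, for the splicing analysis; the annotation and strand setting of the counts are not given in the sources used here, so overlapping, antisense and near-identical genes are uncertain. Counts of 6264 genes kept by filterByExpr were TMM-normalized and tested by edgeR (version 4.0.16, with limma 3.58.1 under R 4.3.3) in a model of 4 samplings over all 9 libraries, H-46 minus H-42, with Benjamini-Hochberg adjustment over all genes. The standard error is the log2 fold change over the square root of F. The 2.5-fold minimum follows the Methods, which give 0.01 for splicing only. Samplings and cultures came from the labels. Libraries of one culture pair by design. Their deviations from the sampling mean correlated between 0.03 and 0.55, those of different cultures between -0.55 and 0.32. In a sampling of 2 libraries the deviations are mirror images, so many of these values repeat each other with the sign reversed. The study describes 2 libraries per sampling (8); all 3 of C-28.1 were used here.

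Named genes were those past the threshold, the largest changes among genes apart in each pair, the smallest p and highest level in each list (highest-level members given as a range where small), and the extremes of H-46 A against C; genes at adjusted p below 0.05, neighbours, Gs37390 and Gs53580 were added after seeing values. Members and lists were chosen with earlier results of these data known. Log2 CPM used a prior count of 2. Annotated lengths and gene order are from RefSeq's ASM34128v1 (6510 genes matched); its build may differ, so no coordinates are given. Alternatives were DESeq2 1.42.0, RLE or no scaling, other filters and thresholds, thinning, a culture block, length-trend offsets (added later) and leaving out libraries. No 2 libraries agreed within sampling noise (lowest chi-square per gene 12.4). Exact permutation of 2 against 2 cannot go below p = 0.333, so none was run.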

Additional observations from a re-analysis of the deposited data

How the results depend on the processing

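All 16 genes with an adjusted p below 0.05 kept their direction in each of the 19 refits that tested them. In each of these genes both H-46 libraries lay on one side of both H-42 libraries. The kept direction therefore follows largely from how the genes were chosen. Gs20530 was not tested with a minimum of 10 counts in every heat library. The number past the threshold (3) ranged from 0 to 8 when single libraries were left out, and was 3 with the culture block and 2 after thinning. DESeq2 gave 23, length-trend offsets (chosen after seeing the data) 6, an adjusted p below 0.05 with the fold minimum 13, and 0 were left both in edgeR on the 4 heat libraries alone (353 genes at an unadjusted p below 0.05) and by glmTreat against 2.5-fold (17). The fits without 1 library that gave 0 had between 225 and 505 genes at an unadjusted p below 0.05. The number at an adjusted p below 0.05 (16) ranged from 0 to 501 when single libraries were left out, and was 72 with DESeq2, 38 with length-trend offsets, 20 with these and the replicate block, and 0 on the 4 heat libraries alone. With the replicate block it was 13, of which 10 were among the 16 (Gs06400, Gs31400, Gs37510, Gs33500, Gs07500 and Gs55380 were not), and the 3 genes past the threshold were the same. Genes apart in each pair numbered 26 at 2-fold and 5 at 4-fold. Of the single genes, Gs37790 ranged from -0.55 without H-46 A to 0.12 without H-46 C, where it reversed. The causes were not tested. On library totals the median of all genes was 0.18 in place of 0.046. H-46 libraries held at most 4709730 counts, which limits genes under 10 counts such as Gs20530 (7). With 2 libraries in each heat sampling, p-values lean on the spread of all 9, the third C-28.1 library included.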

Other observations

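Outside the gene lists, a few named metabolic genes differed between the heat samplings without passing the test. They were picked after their values were seen and are given as values. Gs57980, a glycerol dehydrogenase, which oxidises glycerol, was at 642 and 446 CPM in H-46 (A and C), 268 and 247 CPM in H-42 (B and C) and between 66.5 and 99.1 CPM at 28 °C (log2 fold change 1.08, standard error 0.24, edgeR adjusted p = 0.134). Gs52790, a dihydropteroate synthase of folate synthesis, was at 214 and 148 CPM in H-46 against 78.0 and 77.2 CPM in H-42 and between 60.1 and 83.4 CPM at 28 °C (log2 fold change 1.22, standard error 0.24, edgeR adjusted p = 0.0962). Gs16100, a glutamate decarboxylase, which makes gamma-aminobutyrate from glutamate, was at 174 and 100.3 CPM in H-46 against 287 and 249 CPM in H-42 (log2 fold change -0.96, standard error 0.32, edgeR adjusted p = 0.415). In all 3 genes both H-46 libraries lay on one side of both H-42 libraries, as in 38.3% of all tested genes.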
